A study of Bos taurus with 20 samples.

Results

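The 9 genes described here encode the subunits of activins and inhibins (INHBB, INHBA and INHA), the secreted activin antagonists FST and FSTL3, and the activin receptors ACVR1, ACVR1B, ACVR2A and ACVR2B. They were taken by symbol from the 33063 named genes of the count table. INHBB was chosen on the comparison of the clone types because its levels separated them, and the other 8 genes for their place in the same pathway. The lowest INHBB level among adipogenic clones was 0.913 CPM (15 counts, clone 22-121), where CPM are counts per 1000000 counts of a library, and the highest among non-adipogenic clones was 0.331 (13 counts, clone 22-18). The separation of INHBB is therefore a description, and no test of it is given.

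The libraries came from bovine mesenchymal stem or stromal cell (MSC) clones, each grown from 1 sorted cell of the visceral fat of Holstein Friesian x Aberdeen Angus calves aged 1 to 6 months. There were 10 adipogenic (A) clones, which formed adipocytes in both of the study's differentiation tests and had the largest shares of lipid-stained cells, and 10 non-adipogenic (N) clones, which failed the earlier one. All were sequenced undifferentiated, with 1 library per clone, after growth in medium with fetal bovine serum and basic FGF. Animals 17 and 20 gave 1 clone of each type, and animals 22 and 23 gave 4 of each, so that clones are named by group, animal and clone number (A 22-11).

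A clone stands for 1 founder cell, and clones of 1 animal share that animal. Total counts per library lay between 14615493 and 29185355 for A clones (median 16112862) and between 14908802 and 43111345 for N clones (median 16316703.5), the deepest being N 22-18. The CPM values were scaled by edgeR's trimmed mean of M-values (TMM). Levels are compared between clones and not between genes, because no gene lengths were used. The MSC surface markers ITGB1, CD44 and PDGFRA were detected in all 20 clones, whereas NT5E and THY1 were near 0 in the same N clone, 22-5 (0.508 and 0.395 CPM). N 22-5 also had the lowest level of the MSC marker ENG among N clones (19.1 CPM) and the highest summed level of mesothelial markers (8497 CPM). Mature adipocyte markers summed to 7.90 to 29.3 CPM in A clones and 4.32 to 31.4 CPM in N clones. Of the 5, PLIN1 rose in A clones (log2 0.53, adjusted p = 0.0456), FABP4 and CIDEC did not pass the test, and LEP (at most 4 counts) and ADIPOQ (at most 42) did not pass the filter on low counts.

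Activins are dimers of inhibin beta subunits, and pairing of a beta subunit with the alpha subunit encoded by INHA gives inhibins, which oppose activins. Activins bind the type II receptors ACVR2A or ACVR2B, which recruit the type I receptor ACVR1B, and the signal passes through SMAD2, SMAD3 and SMAD4. Follistatin and follistatin-like 3 bind activins outside the cell and keep them from their receptors. INHBB transcripts are abundant in adipose tissue, and activin A, the dimer of INHBA products, is known from cultured human adipose progenitors as a factor that favours proliferation over adipocyte formation.

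INHBB, which encodes the beta B subunit of activin B, was present in all 10 A clones and at or near the detection limit in N clones. In A clones its level was lowest in 22-121 (0.913 CPM), had a median of 3.31 CPM and was highest in 22-16 (27.5 CPM). In N clones it lay between 0 and 0.331 CPM with a median of 0.0307 CPM. The groups did not overlap, and the mean was 7.76 ± 10.3 CPM in A clones and 0.0767 ± 0.106 CPM in N clones (SD, n = 10 each).

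The counts behind these levels were small in most clones. The A clones held 15 to 727 INHBB counts each (1547 in all) and the N clones 0 to 13 (21 in all). In 9 of 10 N clones the count was 3 or fewer, and in 5 of them it was 0. A count of 0 allows up to 3 counts, or 0.134 to 0.189 CPM at the depth of those 5 libraries, which covers counting error only. N 22-18, with 13 of the 21 counts, was also the deepest library. After scaling it was still the highest N clone, at 0.331 CPM against 0.146 CPM in the next. In bulk RNA, fewer cells of a type and less RNA per cell cannot be told apart, so a low level in a clone may be either.

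**Figure D1:**
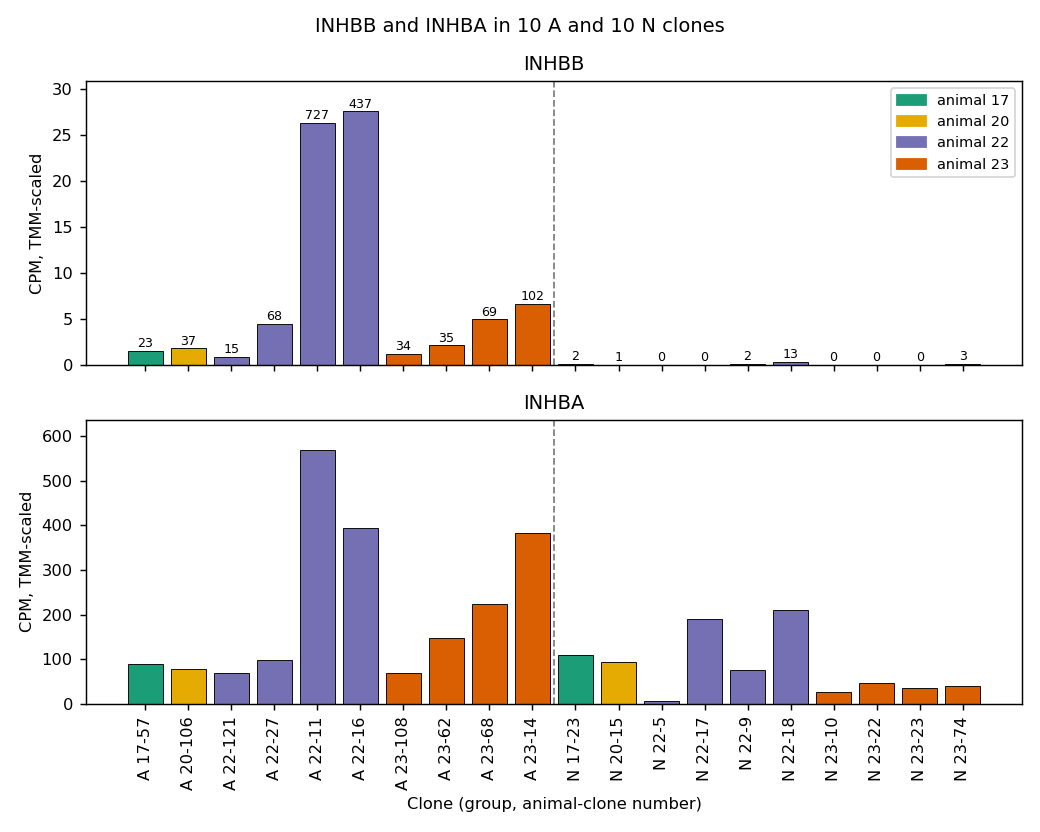
INHBB (upper panel) and INHBA (lower panel) levels in CPM, on linear axes, in each of the 20 clones, with A clones left of the dashed line, N clones right of it and colours for the animal; numbers above the INHBB bars are raw counts. All 10 A clones stand above all 10 N clones for INHBB, while 6 of the A clones lie within the range of N clones for INHBA.

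INHBB was higher in A than in N clones of each of the 4 animals, which follows from the separation it was chosen for. The A clones of animal 22 averaged 14.8 ± 14.1 CPM (SD, n = 4), those of animal 23 averaged 3.76 ± 2.51 CPM (SD, n = 4), and the single A clones of animals 20 and 17 had 1.81 and 1.57 CPM. N clones averaged 0.113 ± 0.156 CPM in animal 22 and 0.0365 ± 0.0729 CPM in animal 23 (SD, n = 4 each), and the single N clones of animals 17 and 20 had 0.109 and 0.0614 CPM. Within the A clones of animal 22 the levels fell apart, with 26.3 and 27.5 CPM in 22-11 and 22-16 against 4.47 CPM in 22-27 and 0.913 CPM in 22-121. The spread within this animal thus spanned the whole range of the A group, 30.1-fold from lowest to highest.

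INHBB was the only member with every A clone on one side of every N clone, which 41 of the 12900 genes tested achieved (0.318%), 29 of them higher in A clones. Since INHBB was picked for this property, nothing is read from the count.

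INHBA, which encodes the beta A subunit of activin A, was higher on average in A clones but overlapped widely with N clones. Its level in A clones was lowest in 23-108 (68.2 CPM), with a median of 123.4 CPM and a highest value of 569.6 CPM in 22-11. In N clones it ranged from 5.25 CPM in 22-5 to 210.6 CPM in 22-18, with a median of 60.6 CPM. The 4 A clones 22-11, 22-16, 23-14 and 23-68 exceeded all N clones, and the other 6 lay within the N range. The fitted difference was 1.45 on the log2 scale (SE 0.582) and did not pass the threshold of 0.05 on the adjusted p (quasi-likelihood F test of edgeR, blocked by animal, adjusted by Benjamini and Hochberg over 12900 genes, adjusted p = 0.0840).

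The direction of INHBA was not shared by the animals. The A minus N difference in mean log2 CPM was 1.63 in animal 22 and 2.24 in animal 23, but -0.29 in animal 17 and -0.24 in animal 20, which had 1 clone of each type. DESeq2's Wald test with the same block passed INHBA (adjusted p = 0.0217, log2 1.46), whereas the adjusted p over all alternatives ran from 0.0217 to 0.345. N 22-5, the clone with the least INHBA, had the highest summed level of mesothelial markers (8497 CPM). Without the 4 clones of animal 22 with the highest sums, the log2 difference was 0.88 (edgeR, adjusted p = 0.345). These were N 22-5, N 22-9, A 22-11 and A 22-16, a set chosen after seeing the data. It holds N 22-5 and the A clones with the most INHBA, 22-11 and 22-16 (569.6 and 393.9 CPM). Leaving these out lowers the difference by itself, so the part of the markers was not tested.

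INHA, which encodes the alpha subunit shared by inhibins, was low in both groups. It ranged from 0.441 to 2.39 CPM in A clones (median 1.90 CPM) and from 0.680 to 2.34 CPM in N clones (median 1.17 CPM). Of the A clones 8 lay within the N range, with 1 above and 1 below it. The log2 difference was 0.34 (SE 0.255, edgeR's quasi-likelihood test, adjusted p = 0.348), higher in A clones of 2 of 4 animals.

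FSTL3, the follistatin-like antagonist of activins, rose in A clones. It ranged from 164.2 CPM in 22-121 to 474.1 CPM in 22-27 in A clones, with a median of 236.6 CPM. In N clones it ranged from 58.4 CPM in 23-10 to 192.7 CPM in 23-74, with a median of 127.0 CPM. All A clones but 22-121 exceeded every N clone. The mean was 283.5 ± 109 CPM in A clones and 127.7 ± 43.7 CPM in N clones (SD, n = 10 each), a log2 difference of 1.13 (SE 0.236, edgeR's quasi-likelihood test, adjusted p = 0.00489).

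The FSTL3 difference had the same sign in 4 of 4 animals, at 0.71, 1.82, 0.82 and 1.41 on the log2 scale in animals 17, 20, 22 and 23. It stayed past the threshold in each of 28 alternative fits, with log2 values between 0.99 and 1.25 and adjusted p between 6.69e-05 and 0.0145. Without A 22-27, the clone with the most FSTL3, the log2 difference was 0.99 and fell short of 2-fold.

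FST, which encodes follistatin, was abundant and variable in both groups. In A clones it ranged from 211.0 CPM in 23-108 to 843.0 CPM in 23-68, with a median of 434.1 CPM. In N clones it ranged from 91.3 CPM in 23-74 to 856.4 CPM in 22-18, with a median of 258.3 CPM. All 10 A clones lay within the N range. The means were 473.2 ± 221 CPM and 313.0 ± 239 CPM (SD, n = 10 each), with a log2 difference of 0.82 (SE 0.439) that did not pass (edgeR's quasi-likelihood test, adjusted p = 0.185).

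Among the receptors none passed the test. ACVR1, a type I receptor that activins bind and that also carries BMP signals, had 65.4 to 164.8 CPM in A clones (median 80.4 CPM) and 39.9 to 103.4 CPM in N clones (median 68.1 CPM). Only A 23-14 and A 17-57 exceeded all N clones, and the log2 difference was 0.37 (SE 0.184, edgeR's quasi-likelihood test, adjusted p = 0.153).

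ACVR1B, the type I receptor that activins signal through, ranged from 8.45 to 23.4 CPM in A clones (median 13.9 CPM) and from 3.44 to 15.9 CPM in N clones (median 11.1 CPM). Of the A clones 8 lay within the N range, and the log2 difference was 0.27 (SE 0.211, edgeR's quasi-likelihood test, adjusted p = 0.375).

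Levels of the type II receptors overlapped between the clone types. ACVR2A ranged from 14.0 to 29.4 CPM in A clones and from 12.1 to 56.4 CPM in N clones, where N 17-23 stood alone at the top and the next clone had 24.8 CPM. Its log2 difference was 0.04 (SE 0.168, edgeR's quasi-likelihood test, adjusted p = 0.885). ACVR2B ranged from 0.487 to 3.37 CPM in A clones and from 0.860 to 5.94 CPM in N clones, with 4 N clones above all A clones. Its log2 difference was -0.34 (SE 0.364, edgeR's quasi-likelihood test, adjusted p = 0.527).

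Of the 8 members other than INHBB, 1 was therefore higher in A clones and 0 were lower, and FSTL3 was also the 1 that passed with at least a 2-fold change. Across all genes tested 20.6% passed, 10.3% higher and 10.3% lower in A clones, and 5.76% passed with at least a 2-fold change. A single call among 8 members is too few to set against these shares. Of the 12900 genes, 4663 had an unadjusted p under 0.05. The median log2 difference of the 8 members was 0.36, beside -0.01 over all genes tested. A p that missed the threshold does not show that levels were alike.

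**Figure D2:**
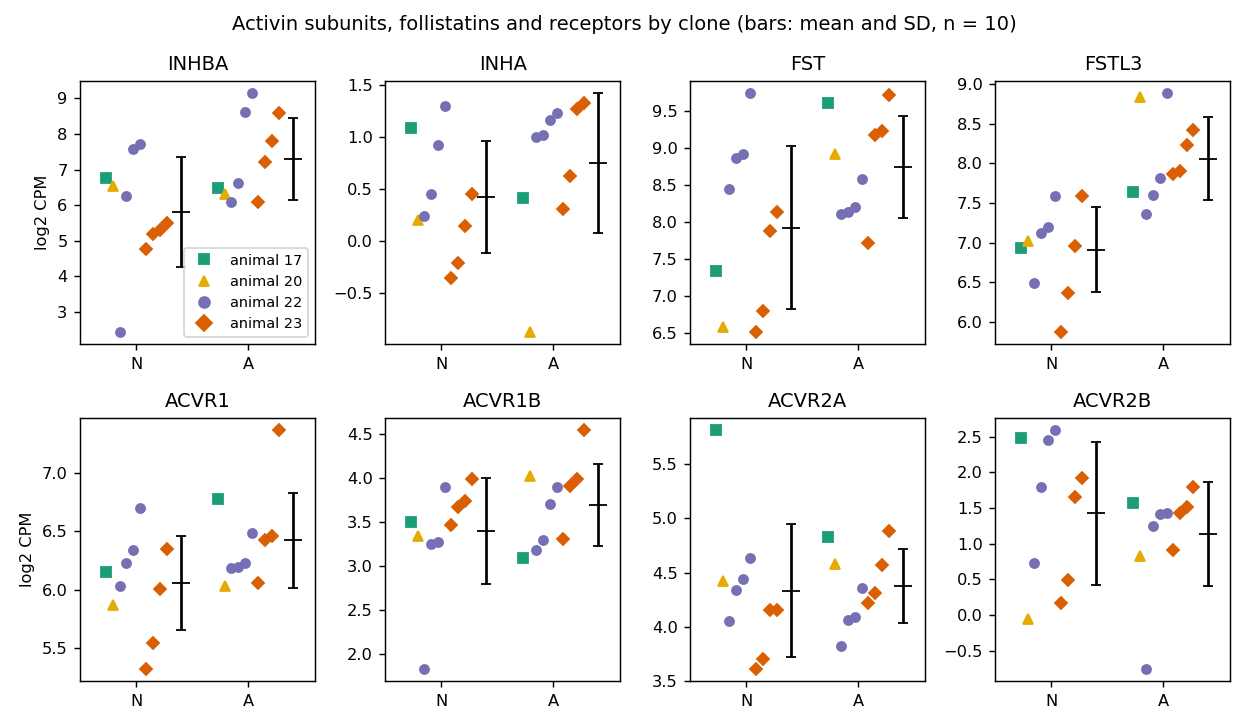
Levels of the 8 members other than INHBB in log2 CPM (prior count 2) by clone for N and A clones, each panel with its own vertical scale, symbols and colours for the animal, and a bar for the mean and SD of the 10 clones. FSTL3 shows the least overlap, with 9 A clones above all N clones, and FST shows N clones of animal 22 above those of animal 23.

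The differences within each animal show where the members varied. FSTL3 was higher in A clones of every animal. INHBB was too, but its choice for separating the clone types fixed this in advance. Each of the other 7 members was lower in A clones of at least 1 animal. FST was higher in A clones of animals 17, 20 and 23 by 2.26, 2.34 and 1.63 on the log2 scale and lower in A clones of animal 22, at -0.73. INHA differed in sign between the animals with 1 clone of each type (-0.67 and -1.07) and those with 4 (0.37 and 0.87).

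**Figure D3:**
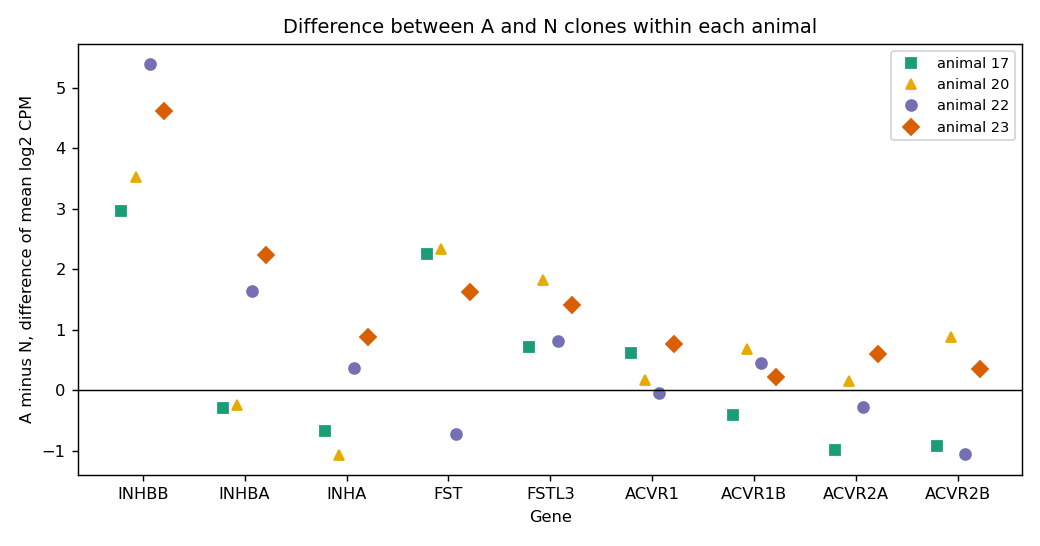
Difference between A and N clones in mean log2 CPM (prior count 2) for each member within each animal, with 1 clone of each type in animals 17 and 20 and 4 of each in animals 22 and 23; points above 0 are higher in A clones. FSTL3 lies above 0 in all 4 animals, as does INHBB, for which its choice fixed this. FST lies at -0.73 in animal 22 and at 1.63 or more in the others.

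The same members were compared between animals 22 and 23 within each clone type, which the choice of INHBB did not use. With 4 clones per animal and type, 0 of 9 members passed between the A clones of animal 23 and animal 22 in edgeR's quasi-likelihood test, where 0% of all 13880 genes passed and 863 genes had an unadjusted p under 0.05. DESeq2 passed 0 members in this comparison too. INHBB was lower in A clones of animal 23, with a log2 difference of -1.97 (SE 0.990, adjusted p = 0.825 by edgeR), and the levels of both animals overlapped. FST was higher by 0.86 (SE 0.422, adjusted p = 0.824 by edgeR).

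Between N clones of the 2 animals INHBB was left out, since its counts there were 0 to 13. Of the other 8 members 0 passed in edgeR, where 1.10% of genes passed and 2264 had an unadjusted p under 0.05. FST came nearest. Its level in N clones of animal 22 was 348.6 CPM in 22-17, 466 CPM in 22-5, 482 CPM in 22-9 and 856 CPM in 22-18. In N clones of animal 23 it was 91.3 CPM in 23-74, 112 CPM in 23-22, 237 CPM in 23-10 and 280 CPM in 23-23. The animals did not overlap, and the log2 difference of animal 23 from animal 22 was -1.58 (SE 0.429), with an adjusted p of 0.0908 by edgeR and 0.00714 by DESeq2, which passed 1 member. DESeq2's share of all genes passing was not computed.

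INHBA pointed the same way in N clones, at 36.8 ± 7.52 CPM in animal 23 and 121 ± 97.1 CPM in animal 22 (SD, n = 4 each). The log2 difference was -1.71 (SE 0.866, adjusted p = 0.350 by edgeR), and the range of animal 22 enclosed that of animal 23. There is 1 animal on each side, so these differences cannot be told apart from differences between those individuals or their cell preparations.

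Whether the difference between A and N clones itself differed between these animals was tested as an interaction. INHBB was left out here too, and 0 of the other 8 members passed in edgeR, beside 0.0288% of all genes and 1273 genes with an unadjusted p under 0.05. FST had the largest interaction, 2.44 on the log2 scale (SE 0.602), with an adjusted p of 0.342 by edgeR and 0.0140 by DESeq2, which passed 1 member. The share of all genes above is that of edgeR, and that of DESeq2 was not computed. FST in A clones of animal 22 lay between 276 and 385 CPM, and 3 of its 4 N clones exceeded all of them. In animal 23, by contrast, the A clones averaged 558 ± 261 CPM and the N clones 180 ± 92.6 CPM (SD, n = 4 each), with A 23-108 at 211 CPM inside the N range. ACVR2A had an interaction of 0.89 (SE 0.267, adjusted p = 0.344 by edgeR).

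Among the 10 A clones, INHBB varied most closely with INHBA among the members. Spearman's rho of log2 CPM was 0.952 and Pearson's r 0.918 (n = 10), which ranked INHBA 6 of 12899 other genes by rho and 25 by r. Without 22-16 and 22-11, the clones farthest from the median INHBB level, rho was 0.929 and r 0.851 (n = 8). The clones share 4 animals and are given as a description without a p-value. INHBB showed no such relation with the total count of the library (rho -0.19, r 0.03).

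The other members followed INHBB less closely over the A clones. INHA had a rho of 0.224, ACVR1 0.309, ACVR1B 0.248, FST 0.127, ACVR2B 0.0909, FSTL3 -0.0545 and ACVR2A -0.467 (n = 10 each). Several of these values rested on 22-16 and 22-11. Without the 2 clones rho was 0.619 for FST, 0.548 for ACVR1, 0.405 for INHA and 0.357 for ACVR1B (n = 8 each). It was 0.262 for FSTL3, 0.143 for ACVR2B and 0.0476 for ACVR2A. PPARG, the master regulator of adipocyte formation, ran the other way within the A clones, with a rho of -0.842 and r of -0.797, and -0.762 and -0.785 without 22-16 and 22-11. The A clones with most INHBB, 22-16 and 22-11, had 6.17 and 4.34 CPM of PPARG, while 22-121, with the least INHBB, had 19.7 CPM. A 22-11 and A 22-16 also had the highest mesothelial marker sums of the A clones (976 and 887 CPM, median 56.2 CPM), and the part of this in the relation was not tested.

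**Figure D4:**
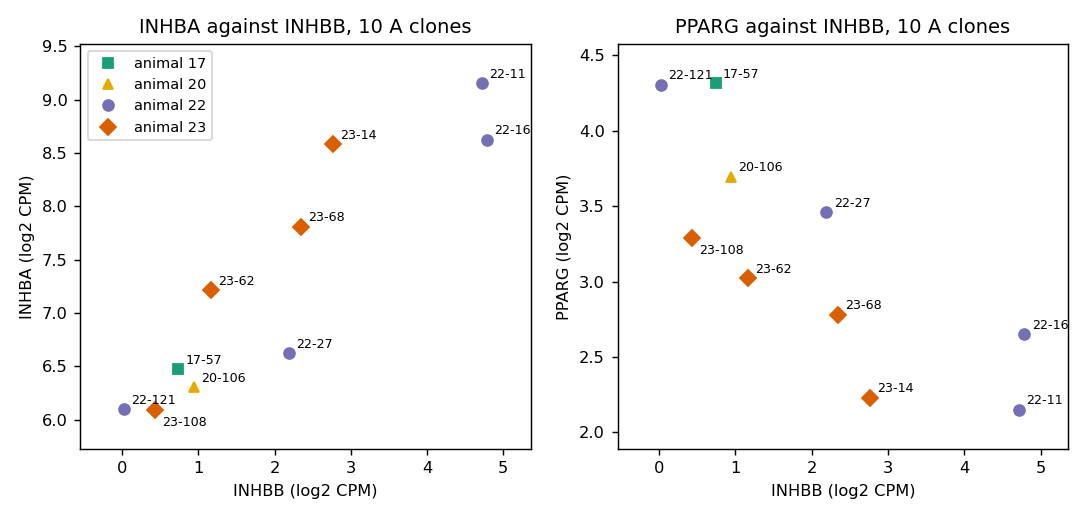
INHBA (left) and PPARG (right) against INHBB in the 10 A clones, all in log2 CPM (prior count 2), with symbols and colours for the animal and each point named by animal and clone number. INHBA rises and PPARG falls with INHBB (rho 0.952 and -0.842), and the highest INHBB levels are those of 22-11 and 22-16.

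The 5 genes ranked closest to INHBB over the 10 A clones by rho were AZIN1 (0.988), ZNF317, PPTC7, ZNF304 and C28H1orf131 (0.964 each). By Pearson's r only 1 of them was among the closest 5. Over all 20 clones, where the separation of the clone types enters, the closest 5 were BEGAIN (0.927), FAM20A (0.910), TERF2IP (0.908), PID1 (0.905) and ELL2 (0.902), and 2 of these were among the closest 5 by r. FSTL3 had a rho of 0.777 with INHBB over all clones and INHBA 0.712. PPARG had a rho of 0.659 and r of 0.750 there, the opposite sign to that within the A clones.

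The ratio of raw counts within a library gives a view of the ligand and antagonist genes that scaling does not touch. INHBB counts per 1000 INHBA counts were 13.4 to 69.9 in A clones (median 20.2) and 0 to 3.74 in N clones (median 0.330). These ranges did not overlap, which the choice of INHBB would also give. FST counts per INHBA count were 0.484 to 8.76 in A clones (median 3.83) and 1.03 to 88.8 in N clones (median 3.27), with wide overlap. The lowest were in A 22-11 and A 22-16 (0.484 and 0.748) and the highest in N 22-5.

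The remaining genes of the pathway were taken from lists grouped by role and chosen with earlier results of these data known. Of 65 listed genes other than members, 61 were in the table and 49 passed the filter on low counts. Of these 49, 17 passed the test (34.7%, beside 20.6% of all genes tested), 10 higher and 7 lower in A clones, and 8 with at least a 2-fold change. Over all genes tested, 10.3% passed higher, 10.3% lower and 5.76% with at least a 2-fold change. The median log2 difference of the 49 was 0.14. With the 4 clones of animal 22 that had the highest mesothelial marker sums left out, 8 passed in place of 17, the lost calls being those of BMPR2, PTHLH, GDF1, TGFB1, TGFB2, FURIN, ID1, ID3 and ID4. Their log2 differences kept their signs in this set of 16 clones, at 0.39 for BMPR2, 2.87 for PTHLH, 1.35 for GDF1, 0.82 for TGFB1, 0.99 for TGFB2, 0.47 for FURIN, -0.62 for ID1, -0.49 for ID3 and -1.14 for ID4. The share of all genes that passed in this set was not computed, so the 8 calls cannot be set against it.

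Among 5 other ligands tested, 3 rose in A clones and 0 fell. TGFB1, a transforming growth factor that signals through the same SMADs, was at 135 ± 84.3 CPM in A clones and 63.9 ± 31.3 CPM in N clones (SD, n = 10 each), a log2 difference of 1.11 (SE 0.303, adjusted p = 0.0180). GDF1, a ligand of activin receptors, was at 6.89 ± 3.69 CPM and 2.90 ± 1.94 CPM (log2 1.40, adjusted p = 0.0177). In RefSeq GDF1 overlaps CERS1 and UPF1, so its counts are uncertain. TGFB2 (log2 1.27, adjusted p = 0.0319), which passed in 19 of 28 alternative fits, is named after its values were seen. TGFB1 was higher in A clones of 4 of 4 animals, and GDF1 and TGFB2 in 3 of 4 each. In the single clones of each type, GDF1 was lower in A in animal 20 (log2 -1.17) and TGFB2 in animal 17 (log2 -1.43).

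The activin subunit genes outside the members were near absent. INHBC had 0 counts in every clone. INHBE did not exceed 3 counts in A clones but reached 95 counts (5.17 CPM) in N 17-23, and did not pass the filter on low counts. Both are named after their values were seen, as is ACVR1C, the type I receptor for activin B and other ligands, which had no count in N clones and at most 9 in A clones. ACVR1C did not pass the filter either, and 6 of the 10 A clones had counts.

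Of 6 other receptors and co-receptors tested, 2 rose. TGFBR1, the type I receptor of TGF-beta, was at 162 ± 32.9 CPM in A clones and 95.5 ± 27.8 CPM in N clones (log2 0.77, SE 0.157, adjusted p = 0.00410). BMPR2, a type II receptor of bone morphogenetic proteins, was at 248 ± 41.9 and 180 ± 35.5 CPM (log2 0.46, SE 0.116, adjusted p = 0.0126). Both were higher in A clones of 4 of 4 animals. Of 4 extracellular or membrane inhibitors tested, FSTL1, a secreted protein of the follistatin family, rose, at 1651 ± 375 and 872.4 ± 404 CPM (log2 0.96, SE 0.203, adjusted p = 0.00506).

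Of 14 SMADs and intracellular regulators tested, 1 rose and 2 fell. SMAD3, which carries the activin signal into the nucleus, fell, at 69.3 ± 36.9 CPM in A clones against 133 ± 45.2 CPM in N clones (log2 -1.003, SE 0.165, adjusted p = 0.00134), and 8 A clones lay below all N clones. SMAD4, the shared partner of the receptor-activated SMADs, fell, at 61.9 ± 4.60 against 80.1 ± 13.2 CPM (log2 -0.36, SE 0.0767, adjusted p = 0.00507). SMAD2 had a log2 difference of 0.12 (SE 0.164, adjusted p = 0.625). SMURF2, a ubiquitin ligase that acts on the receptors and SMADs, rose from 198 ± 112 to 372.4 ± 117 CPM (log2 1.01, SE 0.245, adjusted p = 0.0101). Of 4 proprotein convertases, which cleave ligand precursors, FURIN rose (log2 0.69, adjusted p = 0.0467). FURIN passed in 11 of 28 alternative fits and is named after its values were seen.

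Of 14 tested genes known as targets of SMAD2 and SMAD3, 2 rose, 0 fell and 12 did not pass. PTHLH, which encodes a parathyroid hormone-like peptide, passed but was higher in A clones in 2 of 4 animals only (log2 3.33, SE 0.880, edgeR's quasi-likelihood test, adjusted p = 0.0156). It had at most 61 counts in an A clone and 66 in an N clone. Without the animal block, PTHLH did not pass (log2 1.40, adjusted p = 0.251).

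All 5 of the listed targets of SMAD1 and SMAD5, the branch used by bone morphogenetic proteins and ACVR1, fell in A clones, in 4 of 4 animals each. The median log2 difference of the 5 was -0.83. Over all genes tested 10.3% passed lower in A clones, and this list was chosen with earlier results of these data known. ID2, an inhibitor of helix-loop-helix factors, fell from 215 ± 86.6 to 118.2 ± 45.9 CPM (log2 -0.84, SE 0.174, adjusted p = 0.00446). SMAD6, an inhibitory SMAD of that branch, fell from 84.4 ± 22.3 to 49.5 ± 12.3 CPM (log2 -0.76, SE 0.161, adjusted p = 0.00521). ID3, ID4 and ID1 fell by 0.63, 1.07 and 0.83 on the log2 scale (adjusted p = 0.0118, 0.0206 and 0.0449). In that smaller set of clones ID2 and SMAD6 passed of the 5, and ID1 passed in 8 of 28 alternative fits.

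**Figure D5:**
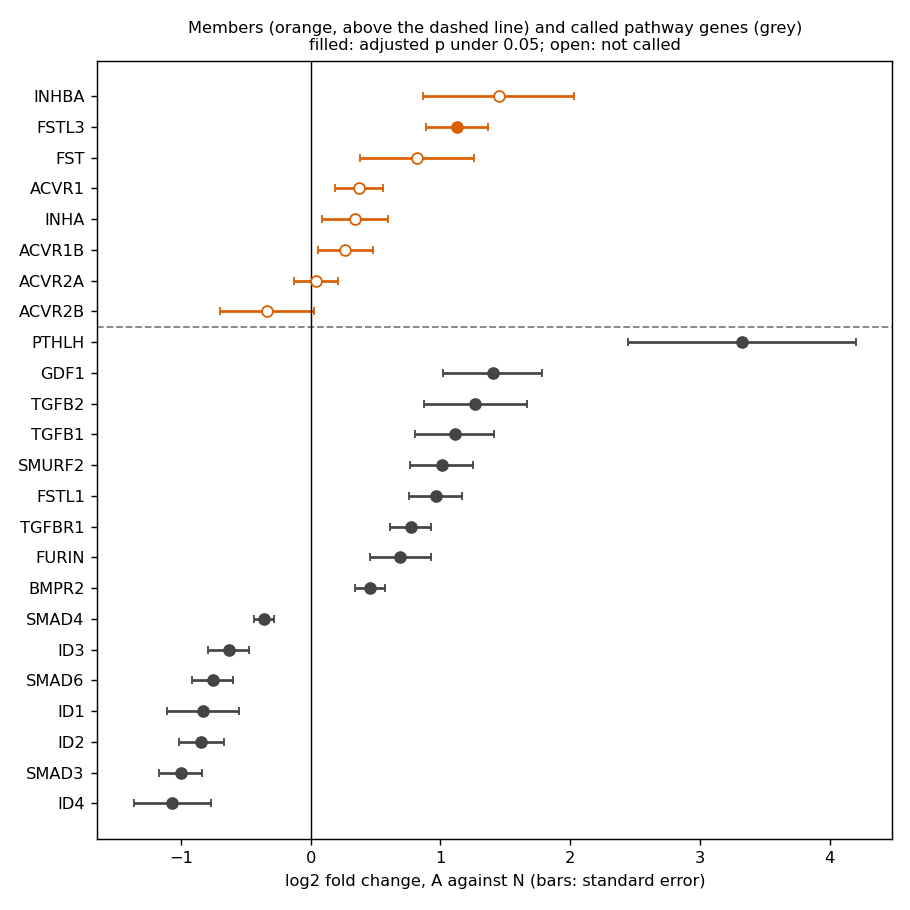
Fitted log2 fold change of A against N clones with its standard error (edgeR, animal as block, 10 clones each) for the 8 members other than INHBB in orange, above the dashed line, and for 16 of the 17 pathway genes that passed the test in grey; filled points have an adjusted p under 0.05. FSTL3 is the only filled member, and SMAD3, SMAD4, SMAD6 and the ID genes lie below 0.

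Marker genes of other cell types also differed between clones. Mesothelial markers summed to 7.27 to 976 CPM in A clones (median 56.2 CPM) and 8.82 to 8497 CPM in N clones (median 157 CPM), and 1 of 6 fell in A clones. Smooth muscle and pericyte markers summed to 716 to 8002 CPM in A clones and 126 to 6050 CPM in N clones, and 1 of 4 tested rose. Macrophage markers summed to 2.56 to 9.13 CPM in A clones (median 5.67 CPM) and 0.767 to 3.38 CPM in N clones (median 2.22 CPM). Of the 4 in the table, CD68 rose in A clones (log2 1.06, adjusted p = 0.0157). CSF1R, at most 35 counts and not tested, was higher in each of the 10 A clones than in any N clone. Of the 12900 genes tested, 0.318% separated the clone types in this way, and CSF1R was outside that set. CD163, at most 52 counts and not tested, was higher in A clones of 2 of 4 animals, and PTPRC had at most 7 counts. Endothelial markers summed to 5.12 to 23.7 CPM in A clones (median 8.67 CPM) and 1.07 to 41.3 CPM in N clones (median 3.17 CPM), and 0 of 3 tested passed in edgeR. PECAM1 reached 450 counts (log2 2.49, adjusted p = 0.0675) and VWF 491, whereas CDH5 and KDR had at most 5 and 8. One further fit left out A 22-11, A 22-16, N 22-5 and N 22-9, the clones of animal 22 with the highest mesothelial sums. In edgeR FSTL3 still passed there (log2 1.25, adjusted p = 0.013) and FST did not (log2 1.24, adjusted p = 0.108). The fitted log2 difference of INHBB, a description only, was 4.90 in place of 6.22. A 22-11 and A 22-16 had the most INHBB, so their loss lowers this value by itself. The part of these markers in the other results was not tested.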

How the data were processed

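The authors deposited raw counts per gene for each of the 20 clones. They prepared directional libraries and, per the paper and the submitters' processing notes, used bcl2fastq 2.20, Trimmomatic 0.36, STAR 2.5.2b and featureCounts of Subread 1.5.2 on build ARS-UCD1.2. The strand setting is not given in the sources used here, so counts of overlapping genes are uncertain. Of 33064 rows, 1 had no gene name (0.113% to 0.333% of counts) and was left out. Columns of samples outside the series numbered 0.

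The members and lists were chosen with earlier results of these data known. Differential expression used edgeR 4.0.16 in R 4.3.3 with TMM scaling, the default expression filter, a robust quasi-likelihood fit with animal as a block (the replicate pairing) and Benjamini-Hochberg adjustment over all genes tested. A call needed an adjusted p under 0.05. The standard error is the log2 fold change divided by the square root of F. Animals 22 and 23 were compared in a fit of their 16 clones with 1 mean per animal and clone type. P-values measure the spread between clones, which share animals. Deviations of same-animal A and N clones from their group means had correlations of 0.253, 0.193, 0.241 and 0.440 for animals 17, 20, 22 and 23. Clones of different animals were not compared in this way, so no baseline stands beside these values. Levels are TMM-scaled CPM, with a prior count of 2 on the log2 scale. Named genes were all members, PPARG, at most 8 called pathway genes in each direction and the 5 genes most like INHBB over the A clones and over all clones. The edgeR, DESeq2 and limma fits were tested on simulated data, and the other steps were not. Alternatives used limma 3.58.1 and DESeq2 1.42.0, other scaling and filters, no block, and fewer clones. The symbols of all 9 members matched RefSeq, and INHBA contains a microRNA gene there. No sequences are printed, and 1 called pathway gene is not reported here.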

Additional observations from a re-analysis of the deposited data

Results flagged for a closer look

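For each of the 9 members in each clone type (18 groups of 10 clones), the highest and the lowest clone were compared with the nearest of the others. On the log2 CPM scale, in 4 groups that gap, as a share of the group's range, exceeded Dixon's critical value for 10 samples, where chance gives about 1 in 20, or 0.9 of 18. A 20-106 had the lowest INHA of the A clones, 0.441 against 1.14 CPM in the next (ratio 0.540 on log2 CPM, 0.356 on CPM). N 22-5 had the lowest ACVR1B of the N clones, 3.44 against 9.45 CPM (ratio 0.659 on log2 CPM, 0.484 on CPM). N 17-23 had the highest ACVR2A of the N clones, 56.4 against 24.8 CPM (ratio 0.535 on log2 CPM, 0.714 on CPM). A 22-121 had the lowest ACVR2B of the A clones, 0.487 against 1.67 CPM (ratio 0.620 on log2 CPM, 0.409 on CPM). On the CPM scale 6 of the 18 groups exceeded the critical value, and neither the INHA nor the ACVR2B group did so at its low end. N 22-5 is also the clone with the least INHBA and the highest mesothelial marker sum, and A 22-121 the A clone with the least INHBB. No member's difference between A and N clones differed between animals 22 and 23 past the threshold in edgeR.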

How the results depend on the processing

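FSTL3 passed in each of the 28 alternatives to the comparison of A with N clones. DESeq2 with the animal block passed 2 of 8 members, both at 2-fold (FSTL3 and INHBA), and 1 member each between N clones and for the interaction (FST). The share of all genes that DESeq2 passed was not computed, so these counts stand without it. Without each clone in turn, the members called stayed at 1 and those at 2-fold ran from 0 to 1. ACVR2A, with no replicate block, had a log2 difference of -0.0652, and without each clone in turn between -0.0415 and 0.153. The fit with no replicate block changed the call of no member, but PTHLH (log2 1.40) and ID1 (log2 -0.80) did not pass there. Pathway genes called fell to 8 with the 4 mesothelial-high clones left out, an alternative chosen after seeing the data, which also tested fewer samples. INHBB, a description only, moved to 4.90 there, where the A clones with the most INHBB were among those left out. The share of all genes called in that alternative was not computed. Of the 5 genes closest to INHBB by rho, 1 was among the closest 5 by Pearson's r.

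Between animals 22 and 23, leaving out 1 clone changed the sign of values that had not passed. INHBA in A clones ran from -0.93 to 0.16, FSTL3 from -0.0795 to 0.53 and INHA from -0.32 to 0.0135. The interaction of ACVR1B ran from -0.34 to 0.25. Depth limits INHBB in N clones, where 9 of 10 libraries held 3 counts or fewer. The comparisons between animals rest on 4 clones per group and 1 animal on each side.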
